A study of Homo sapiens with 10 samples.

Results

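The genes described here are 4 CC chemokines, the secreted chemoattractants CCL2, CCL7, CCL8 and CCL20, followed through every group of an RNA-seq experiment in human 12Z cells. They were picked by name, with earlier results of these data known. Their rows were read from the deposited count table by gene ID, so they are 4 of the 62750 gene IDs listed there. All 4 passed the filter on low counts that 15740 genes passed. CCL2, CCL7 and CCL8 belong to the monocyte chemoattractant proteins, which act mainly on monocytes through the receptor CCR2, with CCL7 and CCL8 also using other CC receptors. CCL20 acts through CCR6 and attracts dendritic cells, B cells and subsets of T cells. In epithelial and stromal cells interleukin 1 signals through MYD88 and IRAK kinases to NF-κB, and through MAP kinases, among them the JUN N-terminal kinases (JNK), to the AP-1 factors that contain JUN. CCL2 has long been studied in endometriosis, where macrophages gather in the peritoneal fluid and in lesions.

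12Z is an immortalized line of epithelial cells from peritoneal endometriosis, so all libraries come from a single cell line. Cells grew in 10% serum, spent a night in medium with 2% charcoal-stripped serum and no phenol red, and received inhibitor or DMSO for 30 min before the 6 h stimulation. The 5 groups held 2 libraries each: IL1β at 10 ng/ml after 1 µM CDD-2728, after 10 µM CDD-2728, after 1 µM CDD-3013 or after DMSO (called IL1β alone below), and vehicle, which carried DMSO and no IL1β. CDD-2728 and CDD-3013 are compounds studied as JNK inhibitors. No group had an inhibitor without IL1β, and the labels do not say whether the replicates of a group were separate cultures, so p-values measure the spread between these libraries, which may be technical. In such bulk RNA, fewer cells making a transcript and less of that transcript per cell cannot be told apart.

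Libraries held 16312600 to 19479416 counts. Levels are CPM (counts scaled to library size with TMM factors), group values are mean ± SD over 2 libraries, and log2 fold changes have SEs after the ± sign. Tests are edgeR's quasi-likelihood tests, with Benjamini-Hochberg adjustment over all 15740 tested genes and a threshold of 0.05. The epithelial keratin KRT8 averaged 6760 CPM over the 10 libraries, but 4 of 10 epithelial markers, among them EPCAM at 0.0728 CPM and ESRP1 at 0.0105 CPM, averaged under 1 CPM. All 8 stromal markers (COL1A1 at 2800 CPM) and all 6 mesothelial markers (LRRN4 at 464 CPM) averaged at least 1 CPM. Monocyte and macrophage markers, the other likely source of such chemokines, averaged at least 1 CPM for 2 of 10, namely CD14 at 18.9 CPM and ITGAM at 2.69 CPM. The leukocyte marker PTPRC averaged 0.19 CPM, and FCGR3A, CD163 and TYROBP were at 0 in every library. Lymphocyte markers reached 1 CPM for 0 of 7.

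CCL2, CCL7 and CCL8 lie in the chemokine cluster on the plus strand of chromosome 17, with CCL11 between CCL7 and CCL8, and CCL20 lies on the plus strand of chromosome 2. In the GENCODE 29 annotation of GRCh38 the protein-coding genes are CCL2 at chr17:34255218-34257203 (ENSG00000108691.10), CCL7 at chr17:34270221-34272242 (ENSG00000108688.11), CCL8 at chr17:34319036-34321402 (ENSG00000108700.5) and CCL20 at chr2:227805739-227817564 (ENSG00000115009.13). No other annotated gene overlapped them. The transcripts used for length were 741, 810, 1261 and 839 bases long in the same order. CCL2 and CCL7 are paralogs, and the longest stretch their transcripts share base for base is 23 bases. For CCL8 it is 22 bases with CCL2 and 26 bases with its neighbour CCL11. The read length is not given in the sources used here, so how many reads could fit more than 1 paralog is not known.

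Promoters are shown because AP-1 and NF-κB sites are the textbook endpoints of the signal. The set of RefSeq (GRCh38.p14) promoters used here held 3 of the members and lacked CCL2, so CCL2 was not searched. Each is given as the 250 bases before and 50 bases from its RefSeq start, on the plus strand. The windows are chr17:34269971-34270270 for CCL7, chr17:34319185-34319484 for CCL8 and chr2:227813592-227813891 for CCL20. Those of CCL8 and CCL20 lie inside the GENCODE genes given above, so their RefSeq starts are not the GENCODE gene starts. Distances to neighbouring genes below use the GENCODE starts. Capitals mark the matches of 4 motifs searched on both strands, where N is any base. These are the AP-1-like pattern TGANTCA, the CRE-type site TGACGTCA, the kappa-B core GGGNNNNNCC and the TATA box TATAAA.
CCL7: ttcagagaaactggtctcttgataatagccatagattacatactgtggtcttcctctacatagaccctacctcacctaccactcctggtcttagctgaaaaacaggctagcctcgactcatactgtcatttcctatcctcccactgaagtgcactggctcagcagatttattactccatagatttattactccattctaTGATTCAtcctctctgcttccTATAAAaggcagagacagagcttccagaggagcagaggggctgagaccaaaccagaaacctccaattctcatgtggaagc
CCL8: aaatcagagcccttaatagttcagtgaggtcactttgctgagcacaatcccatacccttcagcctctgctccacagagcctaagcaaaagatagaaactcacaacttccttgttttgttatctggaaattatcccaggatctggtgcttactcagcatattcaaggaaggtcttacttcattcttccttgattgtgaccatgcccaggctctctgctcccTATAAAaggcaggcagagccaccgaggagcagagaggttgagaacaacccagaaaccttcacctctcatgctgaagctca
CCL20: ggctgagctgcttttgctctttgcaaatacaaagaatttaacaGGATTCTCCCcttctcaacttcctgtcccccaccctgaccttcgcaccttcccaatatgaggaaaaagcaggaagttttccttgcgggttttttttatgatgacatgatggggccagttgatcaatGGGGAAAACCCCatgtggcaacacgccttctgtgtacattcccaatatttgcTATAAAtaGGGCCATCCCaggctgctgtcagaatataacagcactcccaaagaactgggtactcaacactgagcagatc
The AP-1-like letters were found in CCL7, as TGATTCA at 51 bases before the start, and not in these windows of CCL8 and CCL20. With any middle base allowed, such a match need not be the usual AP-1 consensus. The AP-1-like pattern occurs in 7.71% of the 35116 promoters of the table. The kappa-B core was found in the CCL20 window, at 207 and 21 bases before the start and in overlapping frames at 81 to 79 bases before it. That core is common, with a match in 58.7% of all promoters. A TATA box stood in each window, 30 bases before the start in CCL7 and CCL8 and 29 bases before it in CCL20, against 11.5% of all promoters. The CRE-type site, present in 1.85% of promoters, was in none of them. Matches of different motifs did not overlap. The CCL7 and CCL8 windows were identical in 58.0% of aligned positions, against 52.1% for CCL7 and CCL20 and 47.9% for CCL8 and CCL20. Such matches describe letters only. They do not show that a factor binds, and their part in the chemokine values was not tested.

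IL1β raised all 4 chemokines. CCL2 and CCL7 were present at a low level in vehicle cells, whereas no CCL8 or CCL20 read was counted in either vehicle library. All 4 members were called higher, in a comparison in which 17.6% of tested genes were called higher and 32.6% were called in either direction. CCL8 and CCL20, without a vehicle read, could pass the filter on low counts only through libraries with IL1β. Their calls are thus partly fixed by that filter. The plot of levels by library shows each member in its own row.

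**Figure D1:**
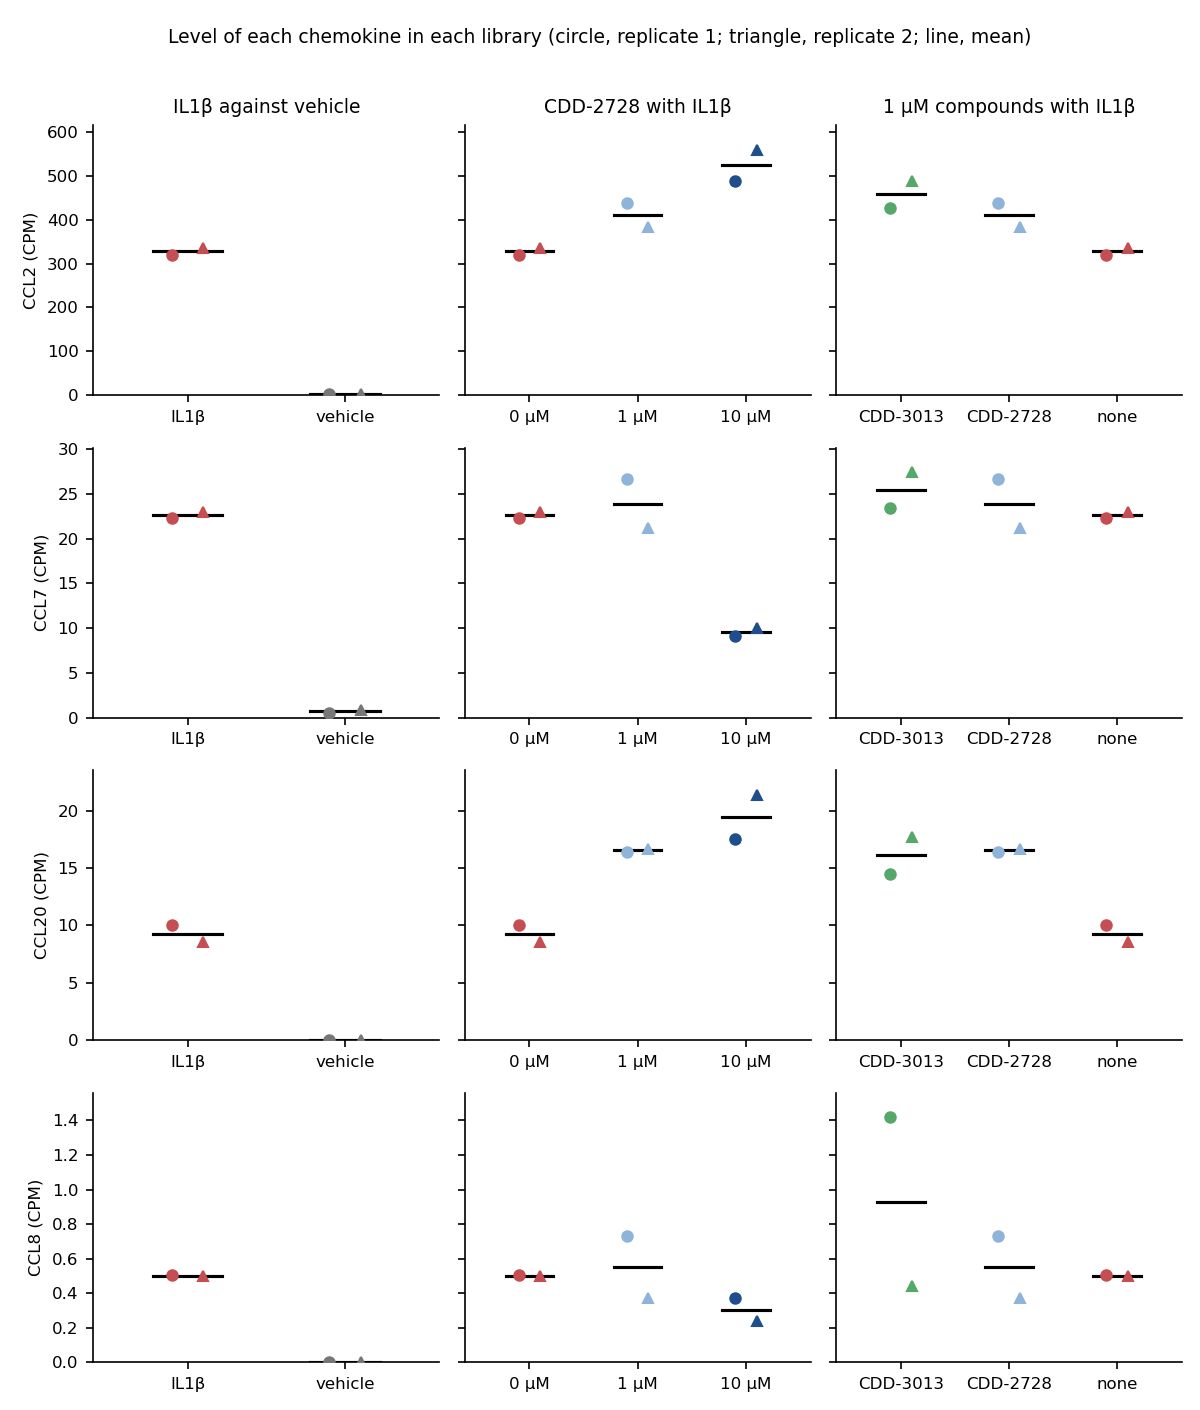
Level of each chemokine (CPM, linear axes from 0, a different scale in each row) in every library. Circles are replicate 1, triangles replicate 2, and lines the mean of 2 libraries. The left column sets IL1β against vehicle, the middle column runs through the doses of CDD-2728 with IL1β, and the right column sets both compounds at 1 µM beside IL1β alone. CCL7 at 10 µM CDD-2728 (9.06 and 9.97 CPM) lies below every other library with IL1β, whereas CCL2 and CCL20 are highest at that dose.

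CCL2, the main monocyte attractant of the group, had 320 and 336 CPM in IL1β cells, against 1.89 and 1.84 CPM in vehicle cells. The groups lie far apart, and vehicle replicates nearly coincide, although counting error on their 77 reads alone spans 1.47 to 2.33 CPM. The CCL2 log2 fold change was 7.45 ± 0.18 (95% interval 7.08 to 7.83, adjusted p = 7.29e-22, edgeR), the 10th largest increase among the tested genes. That ranking includes genes without a vehicle read, whose fold changes have only a lower bound, so the place is approximate. CCL7, the paralog next to CCL2, had 22.3 and 23.0 CPM in IL1β cells, against 0.553 and 0.817 CPM in vehicle cells. These groups are apart as well, at a level well below that of CCL2. The CCL7 log2 fold change was 5.05 ± 0.30 (4.43 to 5.66, adjusted p = 2.73e-15, edgeR).

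CCL20 had 10.0 and 8.53 CPM in IL1β cells, from 179 and 136 reads, against 0 reads in both vehicle libraries. With 3 counts over the group as the upper bound for vehicle, the level was at least 128-fold higher (adjusted p = 4.98e-13, edgeR). CCL8 was close to the limit of detection, with 9 and 8 reads (0.503 and 0.502 CPM) in IL1β cells and 0 reads in both vehicle libraries. Set against the same bound for vehicle, these reads as counted give a level at least 6.91-fold higher (adjusted p = 0.00227, edgeR). The CCL8 replicates with IL1β alone happened to coincide, although counting error on their 17 reads alone spans 0.293 to 0.804 CPM. Such intervals cover counting error only. The fold bounds set vehicle at 3 counts and take the IL1β reads as counted, without counting error of their own. Reads without molecular identifiers are not independent molecules. With CCL8 and CCL20 set at their bounds, the median log2 fold change of the members was 6.03, against -0.01 for all tested genes. Scaling to library totals in place of TMM moved that median of all genes to -0.18 and gave 1625 higher and 4726 lower calls, against 2768 higher and 2360 lower with TMM. CCL2 still stood at 7.28 and CCL7 at 4.87 on the log2 scale then, so the members kept their direction.

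Monocyte and macrophage markers summed to 20.5 to 22.8 CPM in IL1β cells, against 16.4 to 18.3 CPM in vehicle cells, without overlap. CD14 made up most of that sum, and 7 of the 10 markers had at least 1 read in the experiment. Endothelial markers summed to 23.1 to 23.8 CPM in IL1β cells, against 45.6 to 49.6 CPM in vehicle cells, and KDR had the highest mean of them over all libraries (28.2 CPM). Mesothelial markers summed to 965 to 968 CPM in IL1β cells, against 878 to 907 CPM in vehicle cells, and epithelial markers to 9010 to 9120 CPM, against 9300 to 10100 CPM. The stromal sums overlapped. The part of these markers in the chemokine values was not tested.

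Per length of transcript, CCL2 was the most abundant member under every condition. In IL1β cells it reached 443 ± 15.3 CPM per kb, against 28.0 ± 0.63 for CCL7, 11.0 ± 1.24 for CCL20 and 0.398 for CCL8 on the same scale (n = 2). In vehicle cells CCL2 had 2.52 ± 0.0495 and CCL7 0.846 ± 0.23 CPM per kb. The order of CCL7 and CCL20 was turned round at the higher inhibitor dose, where CCL20 had 23.2 ± 3.23 and CCL7 11.7 ± 0.792 CPM per kb. Their replicates did not overlap in either condition.

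CDD-2728 did not lower CCL2 or CCL20 at either dose. Both were higher with inhibitor and IL1β than with IL1β alone, whereas CCL7 was lower at 10 µM and not at 1 µM. At 1 µM, 2 of 4 members were called higher, against 2.03% of tested genes called higher and 2.56% lower (4.59% in all). At 10 µM, 2 of 4 were called higher and 1 lower, against 15.6% and 15.9% of tested genes (31.5% in all). Those shares come from 722 and 4959 genes called, and they moved with single libraries. At 1 µM the count was 218 without IL1β replicate 1, 303 without IL1β replicate 2, 308 without CDD-2728 replicate 1 and 1488 without CDD-2728 replicate 2, and at 10 µM it was 3201 without IL1β replicate 1.

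CCL2 with IL1β had 320 and 336 CPM at no inhibitor, 437 and 384 CPM at 1 µM CDD-2728, and 489 and 559 CPM at 10 µM. The groups did not overlap, and the level was higher at each step of dose. At 10 µM its log2 fold change over IL1β alone was 0.67 ± 0.08 (0.51 to 0.84, adjusted p = 1.01e-06, edgeR). At 1 µM it was 0.32 ± 0.08 (0.16 to 0.49, adjusted p = 0.0201, edgeR). That smaller difference kept its direction but lost its call without any 1 of 3 libraries. In the edgeR fit it was 0.29 (adjusted p = 0.266) without IL1β replicate 1, 0.37 (adjusted p = 0.0864) without IL1β replicate 2, and 0.23 (adjusted p = 0.253) without CDD-2728 replicate 1. Between the doses, 10 µM was higher than 1 µM by 0.35 ± 0.08 on the log2 scale (0.19 to 0.52, adjusted p = 0.00212, edgeR), or by 0.25 (adjusted p = 0.0657) without replicate 2 of the 10 µM dose.

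CCL20 had 10.0 and 8.53 CPM with IL1β alone, 16.4 and 16.7 CPM at 1 µM CDD-2728, and 17.5 and 21.4 CPM at 10 µM. Every library with inhibitor was above both with IL1β alone, and the libraries of the higher dose were above those of the lower. Its log2 fold change over IL1β alone was 0.83 ± 0.15 at 1 µM (0.52 to 1.14, adjusted p = 0.00122, edgeR) and 1.06 ± 0.15 at 10 µM (0.76 to 1.37, adjusted p = 8.21e-06, edgeR), the larger one a 2.09-fold higher level. The difference between the doses, 0.23 ± 0.14 (-0.05 to 0.51), did not pass the threshold (adjusted p = 0.224, edgeR).

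CCL7 had 22.3 and 23.0 CPM with IL1β alone, 26.6 and 21.2 CPM at 1 µM CDD-2728, and 9.06 and 9.97 CPM at 10 µM. The 1 µM libraries lie on either side of those with IL1β alone, and the 10 µM libraries lie below all of them. At 10 µM CCL7 fell to 42.0% of its level with IL1β alone, with a log2 fold change of -1.25 ± 0.14 (-1.54 to -0.97, adjusted p = 2.86e-07, edgeR). It was the 156th largest decrease among the called genes. Between the doses it was -1.33 ± 0.14 (-1.62 to -1.05, adjusted p = 2.55e-07, edgeR), and at 1 µM it was 0.08 ± 0.12 (-0.18 to 0.34, adjusted p = 0.785, edgeR). Leaving out any single library kept the 10 µM value between -1.32 and -1.18. Even so, CCL7 at 10 µM stayed 14.0-fold above vehicle (9.51 to 21.4, counting error), against 33.4-fold (22.9 to 50.6) with IL1β alone.

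CCL8 reads were too few to follow a dose. They numbered 9 and 8 with IL1β alone, 13 and 6 at 1 µM, and 7 and 4 at 10 µM. The log2 differences from IL1β alone were 0.15 ± 0.66 at 1 µM (-1.22 to 1.52, adjusted p = 0.934, edgeR) and -0.69 ± 0.74 at 10 µM (-2.22 to 0.84, adjusted p = 0.503, edgeR). A fall as large as that of CCL7 lies within the second interval, so it is not excluded at this depth.

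In 10 against 1 µM CDD-2728, 1 of 4 members was called higher and 1 lower, CCL2 and CCL7, where 13.3% and 13.8% of tested genes were called (27.1% in all, 4262 genes, and 2680 or 2718 without replicate 1 or 2 of the 10 µM dose). Marker sums differed along the doses as well. Endothelial markers, of which 3 of 7 averaged at least 1 CPM over the libraries, summed to 23.1 to 23.8 CPM with IL1β alone, 32.7 to 33.1 CPM at 1 µM and 54.0 to 61.4 CPM at 10 µM. Mesothelial markers summed to 965 to 968 CPM with IL1β alone, 1070 to 1080 CPM at 1 µM and 825 to 859 CPM at 10 µM. Stromal markers summed to 6460 to 6640 CPM with IL1β alone, 7080 to 7550 CPM at 1 µM and 6060 to 6300 CPM at 10 µM. Epithelial markers overlapped IL1β alone at 1 µM and summed to 8120 to 8750 CPM at 10 µM, against 9010 to 9120 CPM with IL1β alone. Monocyte and macrophage markers overlapped IL1β alone at both doses (21.3 to 28.0 CPM at 1 µM and 18.4 to 21.9 CPM at 10 µM). The part of these markers in the chemokine values was not tested.

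CDD-3013 at 1 µM gave the same pattern of calls for the members as CDD-2728 at 1 µM. Of the 4 members, 2 were called higher, CCL2 and CCL20, where 19.0% of tested genes were called higher (36.4% in all, 5723 genes, and 3705 without IL1β replicate 1). CCL2 had 427 and 488 CPM with CDD-3013 and IL1β, against 320 and 336 CPM with IL1β alone. The groups did not overlap, and the log2 fold change was 0.48 ± 0.08 (0.31 to 0.64, adjusted p = 8.59e-05, edgeR). It was 0.34 with offsets for transcript length and GC content and 0.40 with scaling to library totals, and was called in both. With those offsets 3984 genes were called in place of 5723. The cause was not tested. CCL20 had 14.5 and 17.7 CPM with CDD-3013 and IL1β, against 10.0 and 8.53 CPM with IL1β alone. Here too the groups were apart, by a log2 fold change of 0.79 ± 0.15 (0.48 to 1.1, adjusted p = 0.000302, edgeR).

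CCL7 with CDD-3013 had 23.4 and 27.4 CPM, against 22.3 and 23.0 CPM with IL1β alone. Both treated libraries were higher, but the difference of 0.16 ± 0.12 (-0.09 to 0.42) did not pass the threshold (adjusted p = 0.329, edgeR). CCL8 had 24 and 7 reads with CDD-3013, against 9 and 8 with IL1β alone. Its highest value of the experiment thus came from a single library, and the difference of 0.90 ± 0.61 (-0.38 to 2.17) did not pass either (adjusted p = 0.263, edgeR), and was -0.17 without CDD-3013 replicate 1. Epithelial markers summed to 12300 to 13500 CPM with CDD-3013 against 9010 to 9120 CPM with IL1β alone, and monocyte and macrophage markers to 24.2 to 27.9 against 20.5 to 22.8 CPM. Stromal (6930 to 7440 CPM), mesothelial (1130 to 1150 CPM) and endothelial sums (32.5 to 35.4 CPM) with CDD-3013 were above those with IL1β alone too. Their part in the chemokine values was not tested.

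Set directly against each other at 1 µM, the compounds did not differ beyond the threshold for any member, where 9.85% of tested genes were called higher and 8.02% lower (17.9% in all, 2812 genes, and 632 without CDD-2728 replicate 2 or 949 without CDD-3013 replicate 2). In edgeR 0 of 4 were called, 0 of 4 had an unadjusted p under 0.05, and DESeq2 called 0 of the 3 to which it gave an adjusted p. CDD-3013 minus CDD-2728 was 0.16 ± 0.08 on the log2 scale for CCL2 (-0.01 to 0.32, adjusted p = 0.189, edgeR), and 0.26 without CDD-2728 replicate 1 (adjusted p = 0.0396). The intervals were -0.17 to 0.34 for CCL7, -0.33 to 0.25 for CCL20 and -0.49 to 2.00 for CCL8. Differences of those sizes are thus not excluded. The 10 µM dose was given for CDD-2728 and not for CDD-3013, so the fall of CCL7 at 10 µM has no counterpart to compare.

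**Figure D2:**
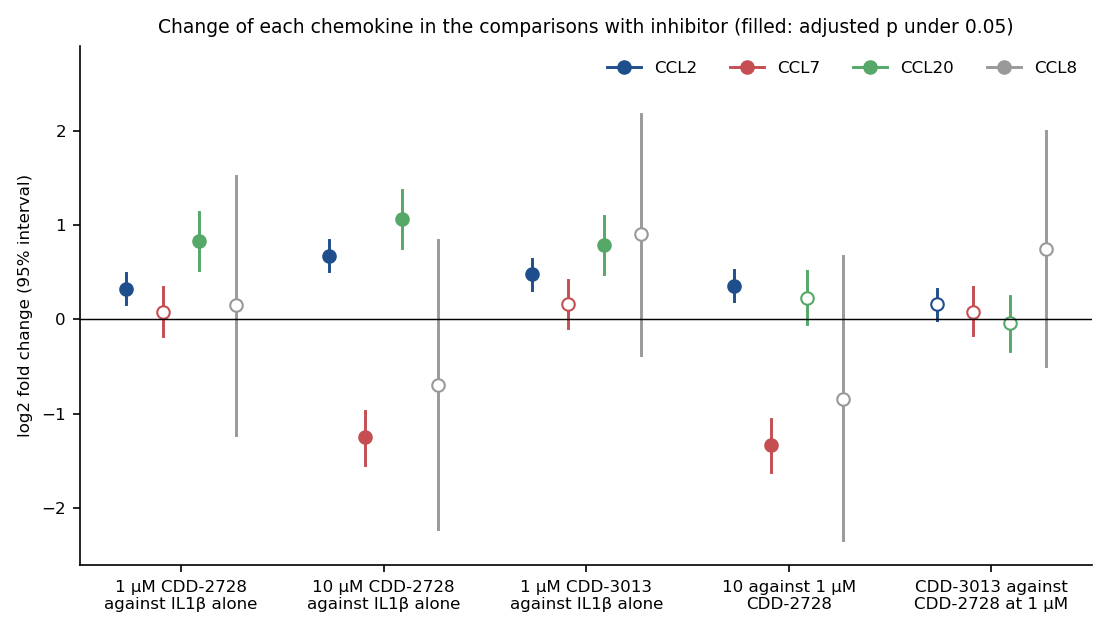
Log2 fold change of each chemokine in the comparisons that involve an inhibitor, with bars for the 95% interval of edgeR's quasi-likelihood fit (n = 2 libraries per group). Filled points passed an adjusted p of 0.05, open points did not. CCL7 is the sole member called lower, at 10 µM CDD-2728 against IL1β alone (-1.25) and against 1 µM (-1.33), and the widest bars belong to CCL8.

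The first 3 inhibitor comparisons share the IL1β libraries. Set over vehicle instead, CCL2 was 176-fold higher with IL1β alone, 221-fold at 1 µM CDD-2728, 280-fold at 10 µM CDD-2728 and 245-fold with CDD-3013. The counting intervals of these folds were 140 to 223, 176 to 280, 224 to 355 and 196 to 310. All of them rest on the same 77 vehicle reads. CCL20 was at least 128-fold, 228-fold, 266-fold and 221-fold higher in that same order, with vehicle set at 3 counts and the IL1β reads taken as counted. CCL7 was 33.4-fold, 35.4-fold, 14.0-fold and 37.4-fold higher.

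Ratios between members within a library do not depend on how libraries are scaled. Counted against CCL2, CCL7 was scarcer under IL1β than in vehicle and scarcer still at 10 µM CDD-2728. There were 6.96 and 6.84 CCL7 reads per 100 CCL2 reads in IL1β cells, against 29.3 and 44.4 in vehicle cells. The vehicle values rest on 12 and 16 CCL7 reads, with counting intervals of 14.0 to 56.8 and 23.0 to 82.2. With CDD-2728 the ratio was 6.09 and 5.52 at 1 µM and 1.85 and 1.78 at 10 µM, and with CDD-3013 it was 5.49 and 5.61. All libraries with inhibitor were below both with IL1β alone, but by far the most at 10 µM, where the mean log2 ratio was 1.92 lower, or 3.80-fold. In replicate 1 the counting interval at 1 µM CDD-2728 (5.54 to 6.68) overlapped that of IL1β alone (6.27 to 7.71). The interval at 10 µM (1.58 to 2.16) did not. The log2 difference from IL1β alone was -0.25 at 1 µM CDD-2728 and -0.31 with CDD-3013. With 2 libraries against 2 the exact permutation test, two-sided, cannot give a p below 0.333, which is what it gave for each of these.

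CCL20 per 100 CCL2 reads was 3.75 and 4.36 at 1 µM CDD-2728, 3.59 and 3.82 at 10 µM, and 3.39 and 3.63 with CDD-3013, against 3.12 and 2.54 with IL1β alone. The inhibitor libraries were all higher, by log2 differences of 0.52, 0.40 and 0.32 in that order (exact permutation p = 0.333 each, the smallest possible). Counting intervals overlapped in part. For replicate 1 they were 2.68 to 3.62 with IL1β alone, 3.21 to 4.01 at 10 µM CDD-2728 and 2.97 to 3.86 with CDD-3013. CCL2 made up 85.6% to 87.1% of all reads of CC chemokine genes with IL1β alone and with either compound at 1 µM, and 91.9% to 92.4% at 10 µM CDD-2728. In vehicle it made up 15.5% to 19.2%, of 214 and 233 such reads.

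**Figure D3:**
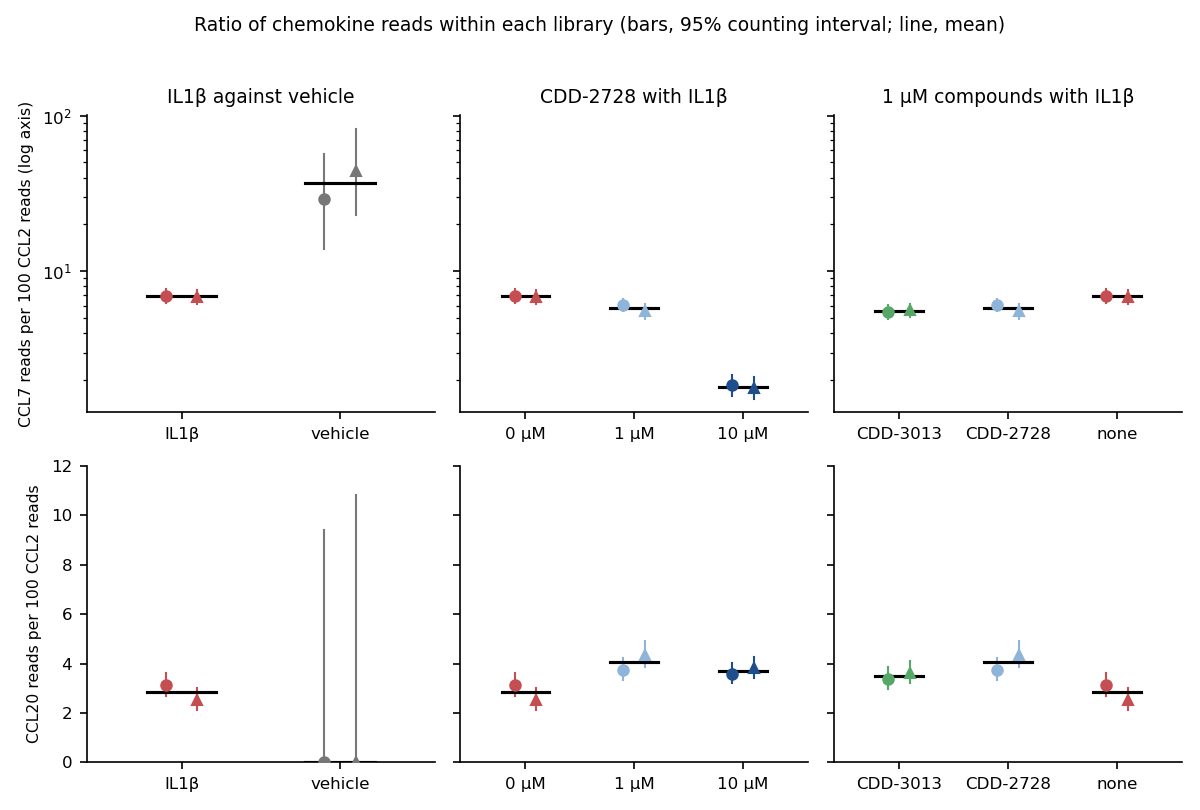
CCL7 reads (top, logarithmic axis) and CCL20 reads (bottom, linear axis) per 100 CCL2 reads in each library. Bars are 95% counting intervals, circles replicate 1, triangles replicate 2, and lines the mean of 2 libraries. The CCL7 ratio at 10 µM CDD-2728 (1.85 and 1.78) lies below all other libraries, and the CCL20 ratio in vehicle is 0 with wide intervals.

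Among the other CC chemokines, 3 of 22 had enough reads to be tested, 10 were at 0 in every library, and the remaining 9 reached at most 8 reads in a library. CCL5, an attractant of T cells and monocytes, had 17.2 and 14.8 CPM in IL1β cells, against 4.70 and 6.94 CPM in vehicle cells. The groups did not overlap, and the log2 fold change was 1.47 ± 0.16 (adjusted p = 1.24e-07, edgeR). Under CDD-2728 with IL1β it had 23.4 and 22.8 CPM at 1 µM and 10.3 and 13.1 CPM at 10 µM. CCL5 was thus higher than with IL1β alone at the lower dose (0.53 ± 0.14, adjusted p = 0.0284, edgeR) and lower at the higher dose (-0.46 ± 0.15, adjusted p = 0.0209, edgeR). With CDD-3013 it had 28.0 and 28.3 CPM, a difference of 0.81 ± 0.14 from IL1β alone (adjusted p = 8.81e-05, edgeR).

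CCL11, the eosinophil attractant that lies between CCL7 and CCL8, had 17 and 14 reads in IL1β cells, against 0 in both vehicle libraries (adjusted p = 4.09e-05, edgeR). It had 21 and 13 reads at 1 µM CDD-2728, 9 and 15 at 10 µM, and 20 and 23 with CDD-3013. Those arms overlapped or lay near IL1β alone, with adjusted p of 0.922, 0.55 and 0.398 in edgeR. CCL28, a mucosal chemokine, had 1.73 and 1.76 CPM in IL1β cells, against 2.58 and 2.25 CPM in vehicle cells, and did not pass the threshold (-0.47 ± 0.31, adjusted p = 0.271, edgeR).

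The cells carried hardly any reads of the receptors for these ligands. Of 14 CC chemokine receptor genes, 7 were at 0 in every library and 6 more reached at most 11 reads in a library. The one tested, CCR10, which binds CCL27 and CCL28, had 1.62 and 2.32 CPM in IL1β cells, against 1.15 and 1.07 CPM in vehicle cells (0.81 ± 0.42, adjusted p = 0.146, edgeR). Its adjusted p in the other comparisons was 0.368 or more.

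Around CCL2, the genes with enough reads for a test were all chemokines. Of the 26 genes that start within 500 kb of CCL2, 4 had enough reads, and these were CCL2, CCL7 at 15.0 kb, CCL11 at 30.4 kb and CCL8 at 63.8 kb. All 4 were called higher with IL1β, where 17.6% of tested genes were, but CCL2, CCL7 and CCL8 are the members already described. CCL8 and CCL11, without a vehicle read, could be tested only through libraries with IL1β. Another 14 of the 26 were at 0 in every library. Around CCL20, 5 of 27 genes were tested. Beside CCL20 itself, AGFG1, which starts -333.6 kb from it, was called in 3 comparisons, at 0.47 for IL1β against vehicle (adjusted p = 6.64e-06), -0.23 for 10 µM CDD-2728 (adjusted p = 0.0111) and -0.20 for CDD-3013 (adjusted p = 0.0208) against IL1β alone, all in edgeR. MFF, SLC19A3 and DAW1 did not pass the threshold in any comparison.

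A list of 37 genes of the pathway from the IL1 receptor to NF-κB and AP-1 was described, of which 36 were tested. Besides receptors, kinases and NF-κB or AP-1 subunits, it holds regulators such as TNFAIP3 and NFKBIZ, C/EBP factors, and ZC3H12A and ZFP36. That list too was chosen with earlier results of these data known. With IL1β, 25 were called higher and 2 lower (17.6% and 15.0% of tested genes), and the median was 0.67 against -0.01 for all tested genes. That count and median cover all these kinds of genes together and do not describe the signalling steps alone. TNFAIP3, which removes ubiquitin chains from the pathway, averaged 655 ± 25 CPM in IL1β cells and 24.8 ± 0.181 CPM in vehicle cells (4.72 ± 0.08, adjusted p = 7.85e-22, edgeR). The RNase ZC3H12A, which degrades inflammatory transcripts, averaged 325 ± 2.68 and 18.2 ± 2.21 CPM in IL1β and vehicle cells (4.16 ± 0.09, adjusted p = 1.65e-20, edgeR). The kinase IRAK2 (3.57 ± 0.10) and the nuclear cofactor NFKBIZ (3.12 ± 0.08) were called higher too. The 2 called lower were TAB1 (-0.58), which activates the kinase MAP3K7, and ZFP36 (-0.50), which promotes mRNA decay.

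Under the inhibitors the list moved in both directions. Against IL1β alone at 1 µM CDD-2728, 6 of 36 were called higher and 1 lower (2.03% and 2.56% of all tested genes), with a median of 0.02. At 10 µM, 14 were called higher and 8 lower (15.6% and 15.9% of all tested genes), with a median of 0.09. With CDD-3013, 13 were called higher and 8 lower (19.0% and 17.3% of all tested genes), with a median of 0.02. The gene called lower at 1 µM was JUN, which encodes the AP-1 subunit phosphorylated by JNK and acts on its own promoter. JUN had 308 and 324 CPM with IL1β alone, 165 and 169 CPM at 1 µM CDD-2728, and 76.5 and 86.6 CPM at 10 µM. With CDD-3013 it had 127 and 129 CPM. No groups overlapped, and JUN at 10 µM was also under its vehicle level of 132 and 146 CPM. The log2 differences from IL1β alone were -0.92 ± 0.07 (adjusted p = 1.37e-08), -1.96 ± 0.07 (adjusted p = 3.87e-15) and -1.31 ± 0.07 (adjusted p = 2.22e-11) in edgeR.

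The genes of NF-κB subunits and of the kinases above them moved in both directions. NFKB2, the precursor of the p52 subunit, had 368 and 362 CPM with IL1β alone, 427 and 439 CPM at 1 µM CDD-2728, 743 and 754 CPM at 10 µM. Its log2 difference at 10 µM was 1.04 ± 0.06 (adjusted p = 3.51e-11, edgeR). The IκB-like cofactor BCL3 had 79.5 and 89.8 CPM with IL1β alone, 112 and 113 CPM at 1 µM and 171 and 199 CPM at 10 µM. It was called higher at both doses (0.41 ± 0.08, adjusted p = 0.00243, and 1.13 ± 0.08, adjusted p = 2.47e-10, edgeR) and with CDD-3013 (0.68 ± 0.08, adjusted p = 1.61e-06). The C/EBP factors CEBPB and CEBPD, which take part in cytokine transcription, had differences of 0.92 ± 0.07 (adjusted p = 2.98e-09, edgeR) and 1.34 ± 0.11 (adjusted p = 3.33e-07, edgeR) at 10 µM. Called lower at 10 µM were the NF-κB subunit RELA (-0.23 ± 0.07, adjusted p = 0.0161, edgeR) and the IκB kinases CHUK (-0.44 ± 0.09, adjusted p = 0.000585, edgeR) and IKBKB (-0.27 ± 0.09, adjusted p = 0.0305, edgeR). The subunit REL was called lower with CDD-3013 (-0.45 ± 0.15, adjusted p = 0.0223, edgeR). The map of changes shows every tested gene of the list.

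**Figure D4:**
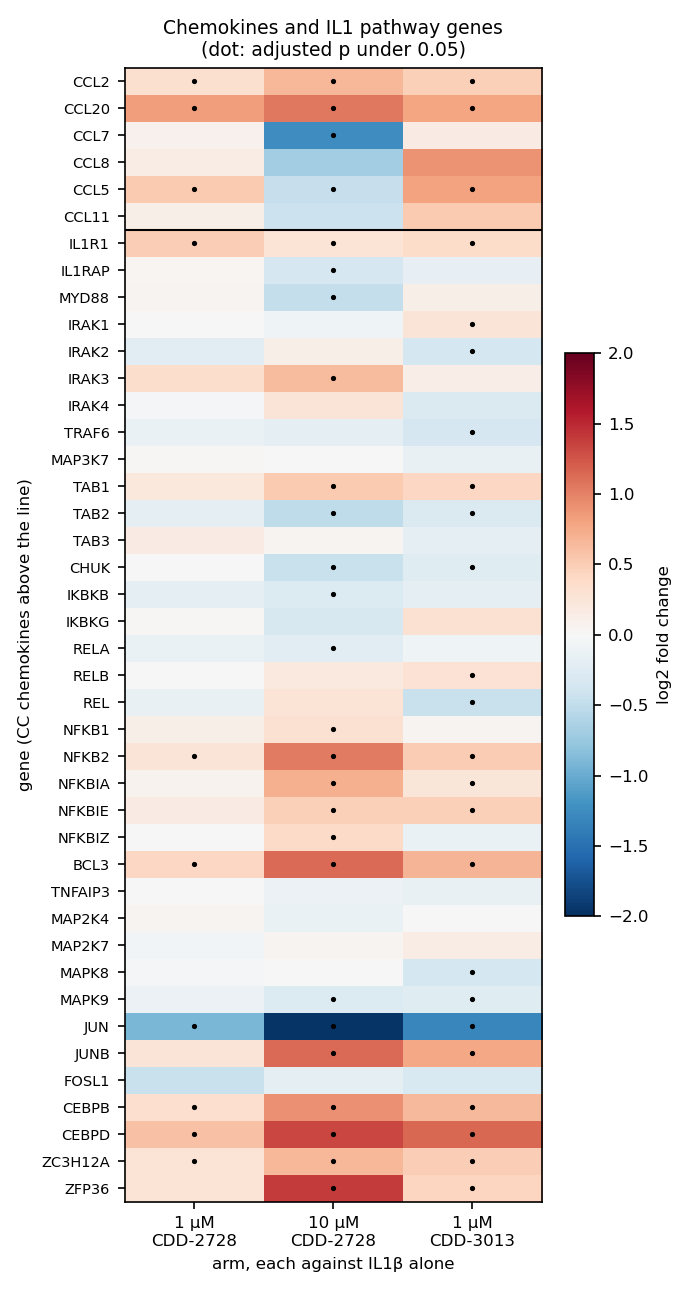
Log2 fold change (colour) in each inhibitor arm against IL1β alone. Rows above the line are the tested CC chemokines with IL1β responses, and rows below it the 36 tested genes of the IL1 pathway list. Dots mark an adjusted p under 0.05. JUN is lower in all 3 arms (-0.92, -1.96 and -1.31), CCL2 and CCL20 are higher in all 3, and CCL7 is called in the 10 µM column alone.

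Directly between the compounds at 1 µM, 9 of the 36 were called higher and 3 lower with CDD-3013, where 9.85% and 8.02% of all tested genes were. JUN was lower (-0.38 ± 0.07, adjusted p = 0.00166, edgeR) at 128 ± 1.61 CPM with CDD-3013 and 167 ± 2.75 CPM with CDD-2728. JUNB (0.52 ± 0.10, adjusted p = 0.00287), CEBPD (0.55 ± 0.11, adjusted p = 0.00391) and CEBPB (0.32 ± 0.07, adjusted p = 0.00542, all edgeR) were higher. For 10 against 1 µM CDD-2728 the counts were 14 higher and 6 lower, where 13.3% and 13.8% of all tested genes were called, with JUN at -1.03 ± 0.07 (adjusted p = 1.07e-09, edgeR), NFKB2 at 0.79 ± 0.06 and ZFP36 at 1.13 ± 0.13.

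Across the 8 libraries with IL1β, Pearson's r of log2 CPM was 0.903 between CCL2 and CCL20, -0.546 between CCL2 and CCL7, and -0.446 between CCL7 and CCL20. CCL8, with its few reads, had 0.571 with CCL7, -0.272 with CCL2 and -0.291 with CCL20. Over all 10 libraries the first 3 pairs had 0.997, 0.947 and 0.936, where the step to vehicle carries most of the spread. These values describe libraries that share groups and are not tests.

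By the same measure, the genes most like CCL7 over the 8 libraries with IL1β were IL24 (0.997), LRRC59 (0.995), NUDCD1 (0.993), HSPA14 (0.992) and SRSF3 (0.991), of 11443 compared. These genes were chosen for their likeness in the same libraries, so their values are a description and no test is given. IL24, a cytokine of the IL10 family, had 0.746 and 0.896 CPM at 10 µM CDD-2728, against 3.24 and 3.51 CPM with IL1β alone (a log2 difference of -2.04). Over all 10 libraries those most like CCL7 were CLDN1 (0.995), MARCKS (0.995), C15orf48 (0.994), TRPA1 (0.994) and CXCL6 (0.994), of 11488 compared. CXCL6, a neutrophil attractant, had 423 and 470 CPM at 10 µM CDD-2728, against 922 and 876 CPM with IL1β alone (a log2 difference of -1.01).

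Most like CCL20 over the 8 libraries were PSPC1 (0.977), PLPP3 (0.970), FAM20A (0.963), CYP27B1 (0.961) and TFPI2 (0.959). TFPI2, a protease inhibitor, had 168 and 190 CPM at 10 µM CDD-2728, against 82.3 and 73.2 CPM with IL1β alone (1.20 on the log2 scale). For CCL2 they were TBX2 (0.990), GLRX (0.989), MMP28 (0.983), ZC3H12A (0.982) and PLPBP (0.981). MMP28, a matrix metalloproteinase, averaged 1.69 CPM in IL1β cells and 4.81 CPM in vehicle cells (-1.5 on the log2 scale).

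Over all 10 libraries CCL2 was most like PLPP3 (0.999), TNFAIP2 (0.999), NAMPT (0.998), SOD2 (0.998) and IL6 (0.998). CCL20 shared NAMPT, TNFAIP2 and PLPP3 with it and added PTX3 and ZC3H12A (0.998 each). PTX3, a soluble pattern receptor, had 222 and 241 CPM at 10 µM CDD-2728, against 121 and 110 CPM with IL1β alone (1.01 on the log2 scale). CCL8 had MAP3K11, SP100, RELT, SEC61A1 and TRIM21 as nearest over 10 libraries (0.956 to 0.952) and RXRA, AARS2, GPR162, GEMIN7 and PIF1 over 8 (0.948 to 0.910). Those CCL8 values rest on 4 to 24 reads per library with IL1β, the 24 in CDD-3013 replicate 1 alone, so its likeness may reflect counting error.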

How the data were processed

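Poly(A) RNA of 10 libraries of 12Z cells was sequenced. The authors deposited 1 table of raw gene counts, whole reads per gene ID and library. The submitters' processing notes name the tools fastp, STAR and featureCounts and build hg38. Versions, settings, strand and read length were not given in the sources used here. Of 62750 gene IDs, 61918 matched the symbol table with their version, 707 without it and 125 not at all. Coordinates and lengths came from GENCODE 29 and promoters from RefSeq GRCh38.p14.

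Counts were filtered (filterByExpr, minimum count 10), scaled by TMM (factors 0.9177 to 1.114) and tested with edgeR 4.0.16 (R 4.3.3) by the robust quasi-likelihood method, with all 10 libraries and 5 group coefficients in 1 fit and 6 comparisons. SEs are Wald values taken as not below counting error, and intervals are 95%. A group at 0 was bounded by 3 counts over the group. The common biological coefficient of variation was 0.06. The scripts were tested on simulated data. Members and lists were chosen with earlier results of these data known.

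Named are the 4 members, up to 4 called genes with the smallest adjusted p from each list and comparison (the text gives part of them), called neighbours within 500 kb, and the 5 genes of mean CPM at least 2 with the highest Pearson correlation of log2 CPM (prior count 2). TAB1, RELA, CHUK, IKBKB, REL, CCL28, CCR10, the neighbours that were not called and the markers named fall outside that rule and were chosen after their values were seen. Replicate numbers did not pair the libraries. Alternatives were relative log expression factors, library totals, no filter, a stricter one (CPM 5 or more in 2 libraries), DESeq2 1.42.0, the 4 compared libraries alone, a replicate block, offsets for transcript length and GC content (known for 97.3% of tested genes; loess span 0.3, 2 rounds), and each library left out.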

Additional observations from a re-analysis of the deposited data

How the results depend on the processing

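Under settings other than leaving out a library, 202 values of single members kept their direction and side of the threshold and 3 reversed. When each library was left out in turn, 228 kept both. CCL8 had no adjusted p from DESeq2 in the 5 comparisons with inhibitor, and those values are not counted. No call of a member was lost under relative log expression factors, library totals, no filter, DESeq2, the 4 compared libraries alone or the length and GC offsets. The stricter filter removed CCL8. The reversals were all of values that had not passed: CCL7 at 1 µM CDD-2728 was -0.01 with the offsets.

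Replicate numbers did not pair the libraries, with correlations of deviations of -0.114 to 0.055 over 10 pairs of groups. With the replicate block, calls numbered 4936, 633, 4776, 5526, 4036 and 2594 in the order of the comparisons, against 5128, 722, 4959, 5723, 4262 and 2812 without it, and no member gained or lost its call (CCL7 at 10 µM was -1.25). With the block and the offsets together CCL7 at 1 µM CDD-2728 was -0.00 and CCL8 -0.02.

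For CDD-3013 against CDD-2728, 1781 genes were called with the 4 compared libraries alone, 463 with the offsets and 422 with offsets and block, against 2812; the cause was not tested. Library totals changed the split of calls to 3080 higher and 1913 lower at 10 µM (2454 and 2505), 2288 and 3540 with CDD-3013 (2994 and 2729), 2821 and 1398 between doses (2093 and 2169), and 1034 and 1965 between compounds (1550 and 1262).

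With each library left out, 4 calls were lost and 1 gained, all of CCL2, and 7 values that had not passed changed sign. Genes called ranged from 3508 to 5485 for IL1β, 218 to 1488 at 1 µM, 3201 to 5347 at 10 µM, 3705 to 6038 with CDD-3013, 2680 to 4362 between doses and 632 to 3340 between compounds. Log2 values ranged at 1 µM CDD-2728 from 0.23 to 0.42 (CCL2), -0.09 to 0.24 (CCL7) and -0.43 to 0.54 (CCL8), with CDD-3013 from -0.17 to 1.5 (CCL8), and between doses from 0.25 to 0.45 (CCL2). Between compounds they ranged from 0.06 to 0.26 (CCL2), -0.07 to 0.26 (CCL7), -0.33 to 1.35 (CCL8) and -0.19 to 0.10 (CCL20). With a prior count of 0.5, 3 of the 5 genes most like CCL8 and 3 of the 5 most like CCL20 over 10 libraries were the same. Depth limits CCL8 most, at 4 to 24 reads in the libraries with IL1β.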
